A study of Mus musculus with 20 samples.

Results

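The genes described here are those of cholesterol synthesis, of its sterol-sensing control and of intracellular transport and efflux, in C2C12 cells, a mouse myoblast line. Of 29 genes listed for the pathway, 26 were measured by a probe set that carried their symbol and no other, out of 22180 genes with such a probe set. Acat2 and Nr1h2 had no probe set under their symbol, and the probe set of Idi1 carried a second symbol and was not used. The 26 comprised 16 enzymes of synthesis, 5 genes of the sterol-regulated SREBP system and 5 genes of transport and efflux. Where a gene had several probe sets, the one with the highest mean over the 20 arrays stood for it, which concerned Scap and Npc1.

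The series set the effects of 3 drugs on these cells beside that of the bone morphogenetic protein BMP4, and its title presents its compounds as activators of BMP signalling. All 20 arrays were of the same line in medium with serum. Untreated cells had 2 arrays, methanol 3, and recombinant BMP4 2 each at 10, 100 and 300 ng/ml. Compounds 942, 178 and 181, known here by code names, had 1 array each at 6.25, 12.5 and 25 µM. Untreated cells served as the control of BMP4 and methanol as that of the compounds. The sources used here do not give how long the cells were treated. No label says whether replicate arrays stem from separate cultures, and p-values then measure only how these samples differ, which may be technical. A compound dose with its 1 array was taken to vary as much as the replicated groups do. A labelling method called Affyexpress was used for BMP4 300 ng/ml replicate 1 and for all of compound 942. The model had a term for it, which left the 300 ng/ml value to replicate 2 alone. The term itself rests on the difference between the 2 arrays at that dose, 1 from each run described next, so label and run cannot be told apart in it. The numbers in the sample titles fall into 2 runs, each with its own untreated and methanol arrays. Replicate 1 of the untreated, methanol and BMP4 groups lay in the first run. Compound 942 was in the first run, and compounds 178 and 181 were in the second.

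Cells make cholesterol from acetyl-CoA in a long chain of reactions, by way of mevalonate, squalene and lanosterol. The SREBP transcription factors switch on the enzymes of the whole chain when membranes of the endoplasmic reticulum run low in sterol, SCAP escorts the factors to the Golgi, and the INSIG proteins hold SCAP back when sterol is plentiful. Surplus cholesterol leaves the cell through transporters such as ABCA1, whose gene is known to answer oxysterols through the LXR receptors.

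With BMP4, most enzymes of the chain stood above untreated cells, with rises at its start (Hmgcs1, Fdps) and near its end (Msmo1, Nsdhl, Hsd17b7, Sc5d). Values are log2 signals, and a change is a difference between log2 means, so that 1 is a doubling. Averaged over the 3 doses, 8 of the 26 genes rose and 1 fell by limma at a Benjamini-Hochberg adjusted p under 0.05. In that comparison 8.81% of all genes were called, 4.2% higher and 4.6% lower. Of the 26, 21 stood above 0, with a median of 0.30 against -0.015 over all genes. Among the 16 enzymes, 15 stood above 0, 6 rose and 1 fell, and the median was 0.44. RNA came from whole cultures, so fewer cells of a type and less RNA per cell cannot be told apart.

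The cells themselves changed over the same arrays. The mean of 9 myoblast markers, each above the median gene when averaged over all arrays of a treatment, was 10.62 to 10.84 in the 5 control arrays. It was 10.4 and 10.63 at BMP4 10 ng/ml, 7.93 and 8.56 at 100 ng/ml and 7.77 and 7.59 at 300 ng/ml. The markers fell unequally. At 100 and 300 ng/ml Myh3 read 4.08 to 4.72, under the median gene, against 8.98 to 9.71 in controls. Myf5 read 8.70 to 9.17 and overlapped its controls (9.15 to 9.46). The mean of 5 measured osteoblast markers was 4.86 to 5.02 in controls and 5.26 to 7.89 with BMP4. At 100 and 300 ng/ml Sp7, Alpl, Bglap and Phex lay above their controls and Dmp1 below, at 3.82 to 4.19 against 4.79 to 4.98. The mean of 6 adipocyte markers was 5.17 to 5.23 in controls and 5.56 to 6.45 with BMP4. At 100 and 300 ng/ml Fabp4 read 5.79 to 7.81, against 2.89 to 3.31 in controls. Pparg (8.41 to 8.65 against 7.2 to 7.59) and Lpl (8.65 to 9.39 against 7.27 to 8.12) also lay above their controls. Cidec and Plin1 overlapped theirs, and Adipoq, the adipokine adiponectin, lay between 3.03 and 3.54 in all 20 arrays. Macrophage markers (4.23 to 4.62 over all arrays) and endothelial markers (4.19 to 4.61) were low throughout. Epithelial markers averaged between 5 and 5.24 without BMP4 and between 5.05 and 5.97 with it. Krt14 carried that rise, at 8.43 to 9.88 at 100 and 300 ng/ml against 4.99 to 5.40 in controls. Epcam lay lower at these doses, and Cdh1, Krt8 and Krt18 overlapped their controls. The part of these shifts in the changes of the cholesterol genes was not tested. Array medians ranged from 4.93 to 5.05, and arrays of one group correlated at 0.982 to 0.991 over all probe sets, against 0.967 to 0.994 between groups.

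Of the 5 early enzymes, which build farnesyl diphosphate by way of mevalonate, 2 rose. Hmgcs1, the HMG-CoA synthase of the cytosol, read 9.68 and 9.77 in untreated cells and 9.85 to 9.92 in methanol. With BMP4 it read 10.18 and 9.87 at 10 ng/ml, 10.43 and 10.34 at 100 ng/ml and 10.39 and 10.40 at 300 ng/ml. The 4 arrays of the higher doses lay above all 5 controls, while one array at 10 ng/ml lay among the methanol arrays. Its mean change was 0.55 (SE 0.10, adjusted p = 0.00321), which is 1.46-fold, and it stood at 0.38 with methanol as the control (adjusted p = 0.0115). Hmgcs1 did not pass once untreated replicate 1 was omitted.

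Fdps, the farnesyl diphosphate synthase, read 10.55 and 10.47 in untreated cells and 10.5 to 10.66 in methanol. With BMP4 it read 10.96 and 10.72 at 10 ng/ml, 11.15 and 10.79 at 100 ng/ml and 11.04 and 10.94 at 300 ng/ml, so that all 6 BMP4 arrays lay above all 5 controls. Its change of 0.40 (SE 0.11, adjusted p = 0.0339) passed in 23 of the 32 alternative fits. It did not pass with an untreated array, methanol replicate 2 or 3, BMP4 10 ng/ml replicate 1 or BMP4 300 ng/ml replicate 2 omitted (adjusted p = 0.0537 to 0.196), nor without a variance trend or with another normalization (0.0569 to 0.0984). Here and below, fits that omit a compound array or BMP4 300 ng/ml replicate 1 could hardly move a call of BMP4 against untreated cells. In the model those arrays enter neither that change nor its residual spread. Without BMP4 300 ng/ml replicate 2 the labelling term could not be estimated. Here and below, that fit therefore left out the whole 300 ng/ml dose, and its BMP4 mean is over 10 and 100 ng/ml alone.

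The other early enzymes did not pass over the mean of the doses. Pmvk, phosphomevalonate kinase, stood at 0.49 (SE 0.14, adjusted p = 0.0608), although its 6 BMP4 arrays, from 6.74 to 7.45, all lay above its 5 control arrays, from 6.43 to 6.67. Mvk, mevalonate kinase, stood at 0.34 (adjusted p = 0.263), again with no overlap between BMP4 arrays (7.35 to 7.94) and controls (7.01 to 7.35) before rounding. Mvd, which decarboxylates mevalonate diphosphate, stood at 0.06 (95% interval -0.32 to 0.44).

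Of the 3 enzymes from farnesyl diphosphate to lanosterol, 0 passed by limma over the mean of the doses, and 0 of them had an unadjusted p under 0.05. Fdft1, squalene synthase, stood at 0.18 (adjusted p = 0.30). Sqle, squalene epoxidase and a known control point of the chain, stood at 0.17 (adjusted p = 0.45). Lss, lanosterol synthase, stood at 0.27 (adjusted p = 0.441). The median of the 3 was 0.18, against 0.40 for the 5 early enzymes and 0.57 for the 8 late ones. The differences between these medians were not tested.

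The late enzymes, which turn lanosterol into cholesterol, held 4 of the 8 rises and the 1 fall. Sc5d, a sterol desaturase near the end of the chain, read 8.47 and 8.55 in untreated cells and 8.70 to 8.75 in methanol. With BMP4 it read 9.04 and 8.78 at 10 ng/ml, 9.22 and 9.28 at 100 ng/ml and 9.39 and 9.31 at 300 ng/ml. All 6 BMP4 arrays lay above all 5 controls. The mean change was 0.65 (SE 0.10, adjusted p = 0.00112), which is 1.56-fold, and it stood at 0.43 with methanol as the control.

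Nsdhl, a dehydrogenase that acts in the removal of methyl groups from the sterol ring, read 9.51 and 9.56 in untreated cells and 9.90, 9.77 and 9.63 in methanol. With BMP4 it read 10.16 and 9.81 at 10 ng/ml, 10.41 and 10.33 at 100 ng/ml and 10.30 and 10.24 at 300 ng/ml. The lower of the 10 ng/ml arrays lay within the methanol arrays, and the other 5 lay above every control. Its change was 0.66 (SE 0.11, adjusted p = 0.00203), or 0.43 with methanol as the control (adjusted p = 0.0104). Sc5d and Nsdhl passed in all 32 alternative fits that were run, of which those without a compound array or BMP4 300 ng/ml replicate 1 could hardly differ.

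Msmo1, the methylsterol oxidase of the same stage, read 8.02 and 7.83 in untreated cells, 8.08 to 8.20 in methanol, 8.47 and 8.18 at BMP4 10 ng/ml, 8.67 and 8.6 at 100 ng/ml and 8.51 and 8.46 at 300 ng/ml. All BMP4 arrays but the lower one at 10 ng/ml lay above every control. It rose by 0.55 (SE 0.11, adjusted p = 0.00727), a value of 0.35 with methanol as the control (adjusted p = 0.0376), and it did not pass once untreated replicate 2 was omitted (adjusted p = 0.104).

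Hsd17b7, the ketosteroid reductase of this stage, read 6.95 and 7.03 in untreated cells, 6.99 to 7.18 in methanol, 7.61 and 7.04 at BMP4 10 ng/ml, 7.68 and 7.65 at 100 ng/ml and 7.64 and 7.77 at 300 ng/ml. The 10 ng/ml arrays split, one near the higher doses and one among the controls. It rose by 0.60 (SE 0.14, adjusted p = 0.0215). Omitting untreated replicate 1 raised the adjusted p to 0.171, omitting untreated replicate 2 to 0.097 and omitting BMP4 300 ng/ml replicate 2 to 0.0705.

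Ebp, the sterol isomerase that precedes Sc5d, went the other way. It read 8.70 and 8.65 in untreated cells and 8.82, 8.52 and 8.51 in methanol, against 8.32 and 8.13 at BMP4 10 ng/ml, 8.35 and 8.23 at 100 ng/ml and 8.46 and 8.28 at 300 ng/ml. All 6 BMP4 arrays lay below all 5 controls. Its mean fell by 0.41 in log2 units (SE 0.11, adjusted p = 0.0414), a call kept in 22 of 32 alternative fits. It did not pass with an untreated array, methanol replicate 2 or 3, or replicate 2 of any BMP4 dose omitted (adjusted p = 0.0562 to 0.239). Its changes at the 3 doses were -0.45, -0.39 and -0.40.

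The remaining late enzymes did not pass over the mean. Cyp51, the lanosterol demethylase, stood at 0.52 (SE 0.16, adjusted p = 0.077), and Tm7sf2, a sterol reductase, at 0.68 (SE 0.23, adjusted p = 0.106), the highest value of the 26 with the widest error among the enzymes. Dhcr7, the reductase that makes cholesterol in the last step of one branch, stood at 0.00 (95% interval -0.22 to 0.22).

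**Figure D1:**
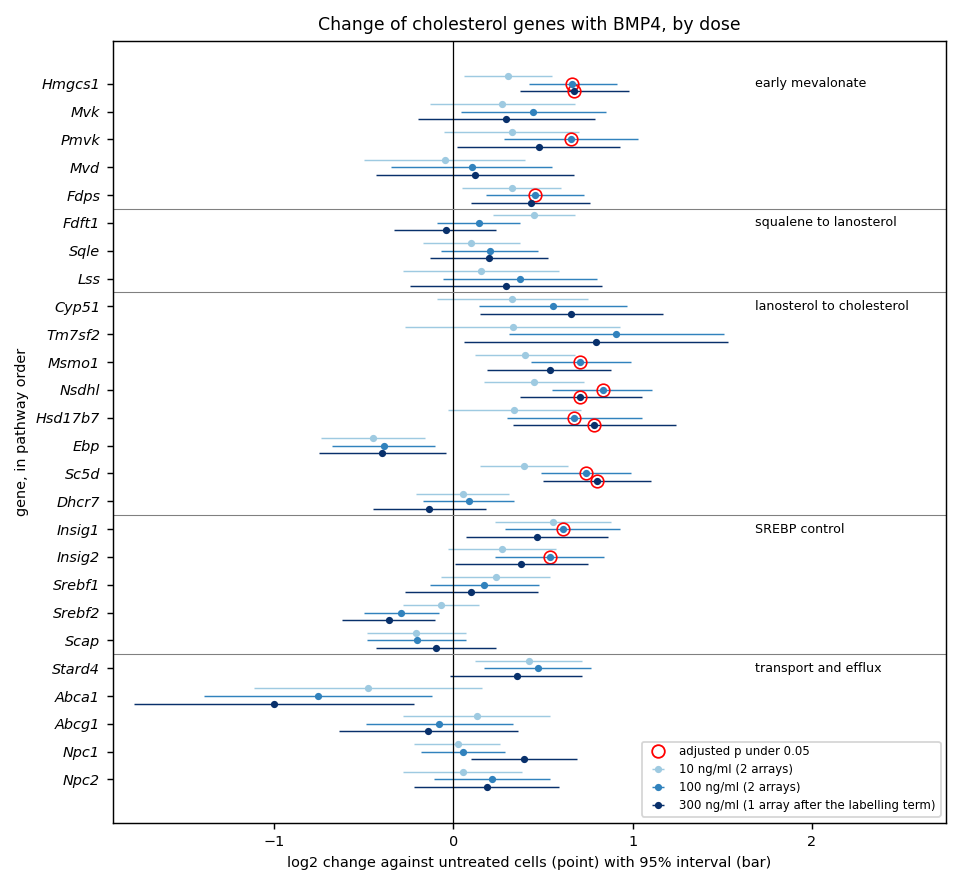
Change in log2 signal of the 26 genes (vertical axis, in pathway order) at BMP4 10, 100 and 300 ng/ml against untreated cells, with points for estimates, bars for 95% intervals and red rings for an adjusted p under 0.05. No ring appears at 10 ng/ml, 9 appear at 100 ng/ml and 4 at 300 ng/ml, and Ebp, Srebf2, Scap and Abca1 lie left of 0 at all 3 doses.

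RefSeq promoter windows of GRCm38.p6, from 250 bases before to 50 after a transcription start, were found for 23 of the 29 listed genes. Shown are the 250 bases before the start of the 3 enzymes whose rise had the lowest adjusted p and of Ebp, the enzyme that fell. Each is printed 5′ to 3′ on the strand of the gene, with every sterol regulatory element (TCACNCCAC) and CCAAT box (CCAAT) of either strand in capitals. Hmgcs1 lies on the plus strand at chr13:119690101-119690350, Nsdhl on the plus strand at chrX:72918271-72918520, Sc5d on the minus strand at chr9:42264301-42264550 and Ebp on the minus strand at chrX:8193513-8193762.
Hmgcs1: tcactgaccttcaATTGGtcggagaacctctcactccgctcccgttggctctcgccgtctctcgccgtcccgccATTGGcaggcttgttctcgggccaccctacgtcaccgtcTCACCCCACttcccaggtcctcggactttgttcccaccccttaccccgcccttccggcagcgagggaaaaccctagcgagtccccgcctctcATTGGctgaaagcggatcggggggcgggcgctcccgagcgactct
Nsdhl: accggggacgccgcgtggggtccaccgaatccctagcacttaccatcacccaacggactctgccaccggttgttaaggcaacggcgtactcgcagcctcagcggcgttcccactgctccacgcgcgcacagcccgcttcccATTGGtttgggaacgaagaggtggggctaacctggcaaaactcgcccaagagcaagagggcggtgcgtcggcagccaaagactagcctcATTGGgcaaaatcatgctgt
Sc5d: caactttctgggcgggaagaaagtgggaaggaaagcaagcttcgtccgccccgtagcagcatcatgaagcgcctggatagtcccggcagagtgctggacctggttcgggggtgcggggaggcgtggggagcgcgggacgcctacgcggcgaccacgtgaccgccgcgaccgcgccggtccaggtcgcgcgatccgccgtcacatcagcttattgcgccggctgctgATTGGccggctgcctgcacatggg
Ebp: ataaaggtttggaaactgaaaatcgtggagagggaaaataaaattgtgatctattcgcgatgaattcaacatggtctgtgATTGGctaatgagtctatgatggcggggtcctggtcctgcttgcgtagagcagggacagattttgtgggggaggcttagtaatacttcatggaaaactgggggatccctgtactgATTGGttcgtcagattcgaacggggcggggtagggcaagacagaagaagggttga
The Hmgcs1 stretch held 1 sterol regulatory element, with its first base at -137 from the start, and 3 CCAAT boxes. Nsdhl held 2 CCAAT boxes, Sc5d 1 and Ebp 2, so the enzyme that fell carried them as did those that rose. GC boxes (GGGCGG, either strand, not in capitals) numbered 2, 1, 2 and 1 in the same order, and no matches overlapped in these stretches.

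Over whole windows, CCAAT was present for 19 of the 23 genes, against 41.1% of the 27025 genes with a window. GGGCGG was present for 21 of 23, against 38.2%. TCACNCCAC was present for 1 of 23 (Hmgcs1), against 1.44%, and the LXR element known as DR4, in its consensus letters, for 0 of 23, against 0.0148%. These are matches of letters and not measured binding, and variants of the elements were not searched.

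Of the 5 SREBP genes, 1 rose. Insig1, which retains SCAP in the endoplasmic reticulum and is itself a known SREBP target, read 9.54 and 9.45 in untreated cells and 9.65, 9.61 and 9.53 in methanol. With BMP4 it read 10.31 and 9.79 at 10 ng/ml, 10.00 and 10.21 at 100 ng/ml and 9.97 and 9.96 at 300 ng/ml, and all 6 lay above all 5 controls. It rose by 0.54 (SE 0.13, adjusted p = 0.0175). With untreated replicate 1 omitted the adjusted p was 0.0899, and with replicate 2 omitted it was 0.136.

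Insig2, its relative, stood at 0.40 (SE 0.12, adjusted p = 0.0615). The genes of the factors did not pass. Srebf1 stood at 0.17 (adjusted p = 0.513), and Srebf2, whose product is the main factor for cholesterol genes, at -0.24 (SE 0.08, adjusted p = 0.109). The 4 arrays at 100 and 300 ng/ml read 9.95 to 10.05 for Srebf2, below the 5 controls at 10.12 to 10.37. Scap, the escort, stood at -0.17 (adjusted p = 0.45), and its other probe set at -0.10 (SE 0.18).

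Of the 5 transport and efflux genes, 1 rose. Stard4, a sterol carrier of the cytosol, read 6.71 and 6.74 in untreated cells and 6.99, 6.96 and 7.13 in methanol, against 7.30 and 7.0 at BMP4 10 ng/ml, 7.16 and 7.24 at 100 ng/ml and 7.37 and 7.08 at 300 ng/ml. The BMP4 arrays lay above both untreated arrays but overlapped methanol. It rose by 0.41 against untreated cells (SE 0.12, adjusted p = 0.0494), yet stood at 0.11 against methanol (adjusted p = 0.621), and 18 of 32 alternative fits kept the call. Omitting any untreated or methanol array, either 100 ng/ml array, BMP4 10 ng/ml replicate 1 or BMP4 300 ng/ml replicate 2 ended it (adjusted p = 0.0506 to 0.249).

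Abca1, the efflux transporter, had the lowest value of the 26. Its signals differed between the 2 runs of title numbers. In the first run it read 5.73 in untreated cells and 5.59 in methanol, against 5.22, 4.83 and 4.99 at BMP4 10, 100 and 300 ng/ml. In the second it read 5.02 in untreated cells and 5.00 and 5.03 in methanol, against 4.57, 4.41 and 4.38. Within each run every BMP4 array lay below every control, and across runs the groups overlapped. The mean change was -0.74 (SE 0.25, adjusted p = 0.0932) and did not pass. With a term for the run it was -0.65 (SE 0.13, adjusted p = 0.00478). Within the runs the differences from untreated cells were -0.51, -0.90 and -0.74 in the first and -0.45, -0.60 and -0.64 in the second. Abca1 averaged under the median gene (5.43) in signal.

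Abcg1, which moves cholesterol to lipoproteins, stood at -0.03 (95% interval -0.38 to 0.32). Npc1 and Npc2, which pass cholesterol out of lysosomes, stood at 0.16 (adjusted p = 0.414) and 0.15 (adjusted p = 0.614), and the other probe set of Npc1 at -0.19 (SE 0.18).

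**Figure D2:**
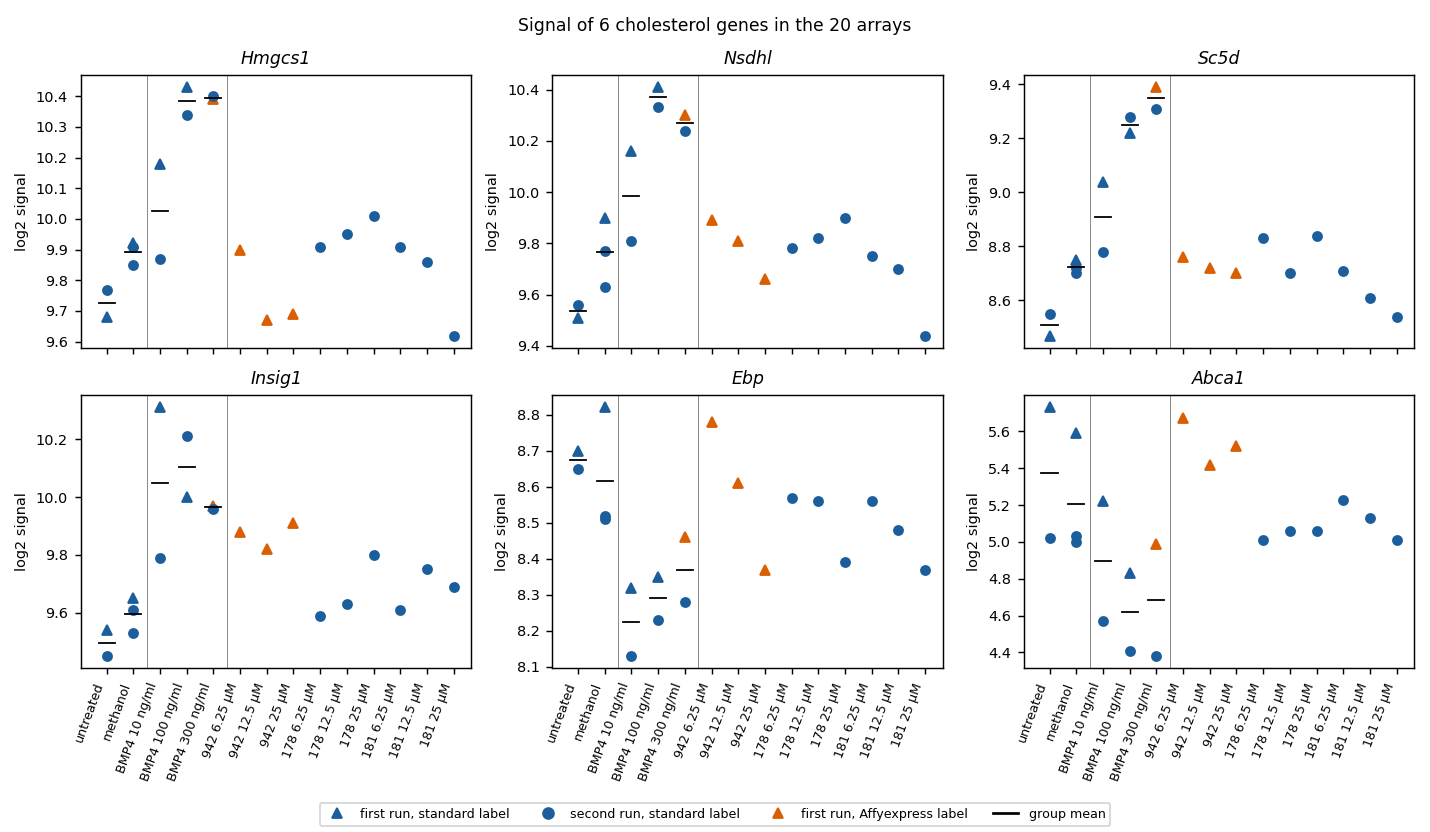
Log2 signal (vertical axis) of Hmgcs1, Nsdhl, Sc5d, Insig1, Ebp and Abca1 in the 20 arrays by treatment (horizontal axis), with triangles for the first and circles for the second run of title numbers, orange for the Affyexpress label and black bars for group means. Sc5d and Insig1 lie higher and Ebp lower in all 6 BMP4 arrays than in the 5 controls, and Abca1 controls of the first run (5.59 and 5.73) stand above those of the second (5.00 to 5.03).

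The arrays were also counted without a model. At BMP4 100 and 300 ng/ml together, 12 of the 26 genes had all 4 arrays above all 5 controls, against 10.4% of all genes. They were Hmgcs1, Mvk, Pmvk, Fdps, Cyp51, Tm7sf2, Msmo1, Nsdhl, Hsd17b7, Sc5d, Insig1 and Insig2. Ebp, Srebf2 and Abca1 had all 4 below, 3 of 26 against 11% of all genes. With the 10 ng/ml arrays included, 5 genes (Mvk, Pmvk, Fdps, Sc5d and Insig1) lay wholly above, against 3.19%, and Ebp wholly below, against 4.59%.

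The 2 arrays at 10 ng/ml differed from each other. Set against the controls of the same run, the 16 enzymes had a median deviation of 0.36 in replicate 1 and 0.04 in replicate 2. The values were 0.58 and 0.37 at 100 ng/ml and 0.44 and 0.43 at 300 ng/ml. In those 4 arrays 13 to 15 of the 16 enzymes lay above the mean of their run's controls, as did 14 and 11 at 10 ng/ml. The count was also 14 in methanol replicate 1, 2 to 10 in the other 4 controls and 3 to 12 in the 9 compound arrays, so it does not by itself set the BMP4 arrays apart. The median deviations of the controls lay between -0.06 and 0.06. Each control array was part of the mean it was set against, which holds its deviation near 0. The untreated and the methanol array of the first run mirror each other by construction. The control values are therefore no measure of how far a BMP4 array could stray. Cyp51 showed the split at 10 ng/ml, at 8.10 in replicate 1, above the higher doses of its run (7.99 and 7.98), and at 7.68 in replicate 2, under the controls of its run (7.77 to 7.81). It was picked out after its values were seen.

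**Figure D3:**
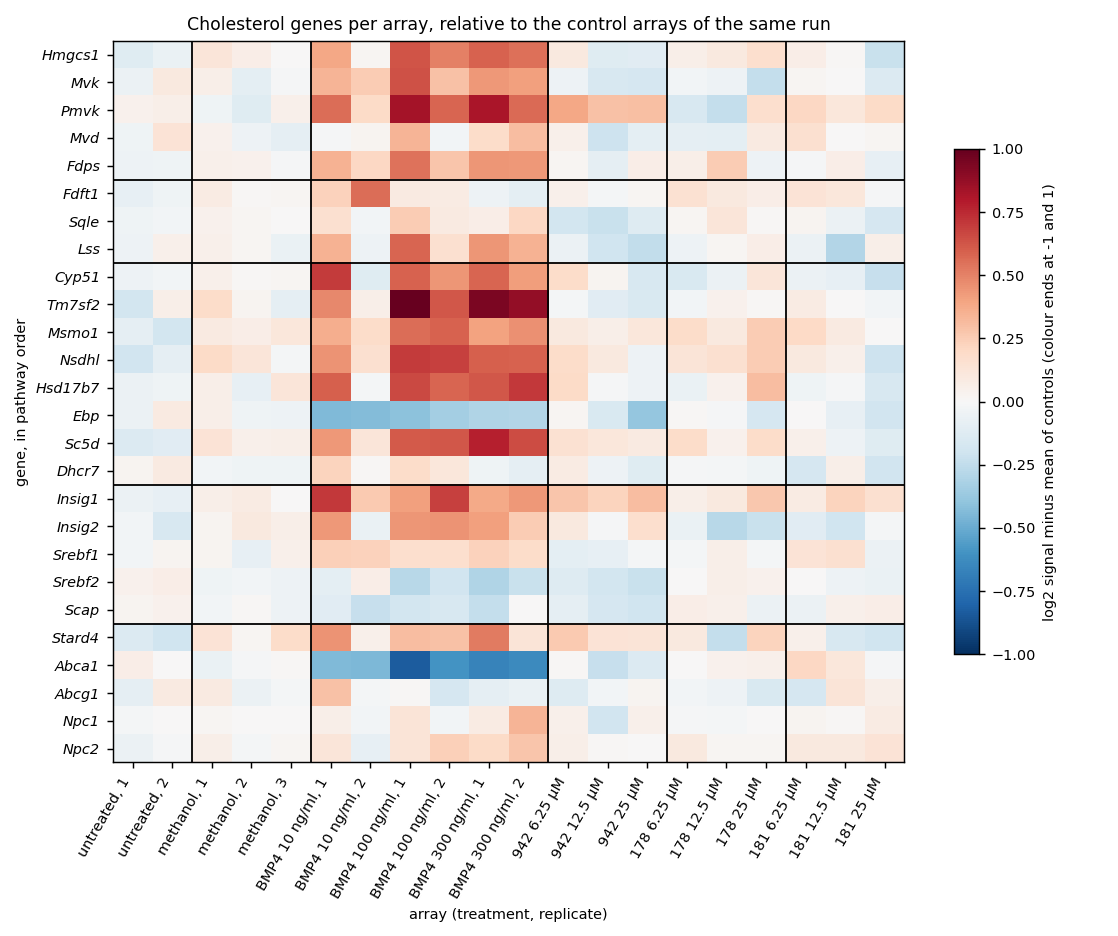
Log2 signal of each of the 26 genes (vertical axis) in each array (horizontal axis) minus the mean of the control arrays of the same run, in red where higher and blue where lower, with the colour scale ending at -1 and 1. The 4 arrays at BMP4 100 and 300 ng/ml are red over most enzymes (medians 0.37 to 0.58) and blue for Ebp and Abca1, BMP4 10 ng/ml replicate 2 is paler than replicate 1, and the 9 compound arrays are pale (medians -0.13 to 0.08).

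By dose, 0 of the 26 passed at 10 ng/ml by limma, where 1.1% of all genes did, although 9 had an unadjusted p under 0.05. Fdft1 came nearest, at 0.45 (adjusted p = 0.0778). At 100 ng/ml 9 rose and 0 fell, against 9.15% of all genes called, 4.4% higher and 4.75% lower. They were Hmgcs1 (0.66), Pmvk (0.66, adjusted p = 0.0317), Fdps (0.46), Msmo1 (0.71), Nsdhl (0.83), Hsd17b7 (0.68), Sc5d (0.74), Insig1 (0.61) and Insig2 (0.54, adjusted p = 0.0309). With methanol as the control Insig2 stood at 0.37 and did not pass (adjusted p = 0.0932). Hmgcs1, Msmo1, Nsdhl and Sc5d passed in all 31 alternative fits at this dose. The other 5 did not pass with either untreated array omitted, and Pmvk, Fdps, Hsd17b7 and Insig2 did not without replicate 1 of the dose, with a highest adjusted p of 0.279. At 300 ng/ml, with wider errors, 4 rose, against 7.98% of all genes called, 3.7% higher and 4.28% lower. These were Hmgcs1 (0.67), Nsdhl (0.71), Hsd17b7 (0.79) and Sc5d (0.80). Sc5d passed in all 30 alternative fits at this dose. Hmgcs1 did not pass with untreated replicate 1 omitted (adjusted p = 0.0522). Nsdhl did not pass in that fit either (0.0654), nor with methanol as the control, at 0.48 (adjusted p = 0.0687). Hsd17b7 was lost with any untreated or methanol array omitted, without a variance trend and with each array centred on its median (adjusted p = 0.0518 to 0.141). Abca1 stood at -0.48, -0.75 and -1.0 at the rising doses, with adjusted p = 0.648, 0.157 and 0.129. Its 300 ng/ml value sets replicate 2, of the second run, against untreated arrays of both runs, and so includes the difference between runs. Relative to the controls of the same run, Abca1 stood at -0.44, -0.83 and -0.67 in the first run. In the second run it stood at -0.45, -0.60 and -0.64.

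No step between doses passed the test. From 10 to 100 ng/ml 0 of the 26 passed by limma, against 2.95% of all genes, and 6 had an unadjusted p under 0.05. Nsdhl stood at 0.38 for that step (95% interval 0.10 to 0.66) and Hmgcs1 at 0.36 (0.11 to 0.61, adjusted p = 0.143). From 100 to 300 ng/ml 0 passed, against 0.00902% of all genes, the 26 values lay between -0.24 and 0.34, and 1, that of Npc1, had an unadjusted p under 0.05.

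On the slope per doubling of dose over the 3 BMP4 doses, 1 gene passed, against 5.4% of all genes, 2.32% with a rise and 3.08% with a fall. Fdft1, squalene synthase, fell by 0.10 per doubling (SE 0.03, adjusted p = 0.0389). It read 10.77 and 11.10 at 10 ng/ml, 10.63 and 10.62 at 100 ng/ml and 10.49 and 10.44 at 300 ng/ml, against 10.47 to 10.62 in controls. Without BMP4 300 ng/ml replicate 2 the slope rests on 10 and 100 ng/ml alone. The reading of 11.10 stood above all other arrays of the gene, and without it the slope was -0.06 (adjusted p = 0.202). The call was also lost without either untreated array, any methanol array or BMP4 300 ng/ml replicate 2 (adjusted p from 0.0521 to 0.194).

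Genes beyond the 26 were taken from a pair of lists written from pathway knowledge. The lists were chosen with earlier results of these data known, so their counts are not an independent check. Of 23 measured genes of further sterol handling (28 listed), 2 rose and 2 fell with the mean of BMP4, with a median of 0.03, where 4.2% of all genes rose and 4.6% fell with a median of -0.015. Mylip, a ubiquitin ligase known as an LXR target, read 7.69 and 7.56 in untreated cells, 8.17 and 7.89 at 10 ng/ml, 8.88 and 8.42 at 100 ng/ml and 9.14 and 8.83 at 300 ng/ml. No BMP4 array overlapped the controls (7.54 to 7.81). It rose by 0.88 (SE 0.14, adjusted p = 0.00201), in all 32 alternative fits. Rdh11, a retinol dehydrogenase known as an SREBP target, rose by 0.69 (adjusted p = 0.0193), but not with either untreated array omitted (adjusted p = 0.0989 and 0.144).

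Ch25h, the enzyme that makes an oxysterol from cholesterol, fell by 0.68 (SE 0.18, adjusted p = 0.034). It read 6.26 and 6.38 in untreated cells and 6.29 to 6.84 in methanol, against 5.37 to 5.96 in the 6 BMP4 arrays, with no overlap. Its call was lost in 6 of 32 alternative fits, namely the mean of its probe sets (-0.46, adjusted p = 0.0541) and the omission of either untreated array, methanol replicate 2, BMP4 10 ng/ml replicate 2 or BMP4 300 ng/ml replicate 2 (0.0567 to 0.197). Stard5, a lipid carrier, fell by 0.47 (adjusted p = 0.0148), from 7.56 to 7.75 in controls to 6.83 to 7.0 at 100 and 300 ng/ml, with the 10 ng/ml arrays at 7.69 and 7.54. It did not pass with either untreated array or BMP4 300 ng/ml replicate 2 omitted, nor with 1 mean for all doses (adjusted p = 0.0877 to 0.192).

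Of 18 measured fatty acid and lipid genes known as SREBP targets (19 listed), 5 rose and 0 fell, with a median of 0.36, against the same 4.2% and 4.6% of all genes. Elovl5, a fatty acid elongase, rose by 0.56 (SE 0.08, adjusted p = 0.000895), from 9.48 to 9.64 in controls to 9.82 to 10.20 with BMP4. Fads2 and Fads1, the desaturases of polyunsaturated fatty acids, rose by 0.53 (adjusted p = 0.00175) and 0.46 (adjusted p = 0.00948). Elovl5 and Fads2 passed in all 32 alternative fits, and Fads1 did not with either untreated array omitted (adjusted p = 0.0967 and 0.0577).

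Me1, the malic enzyme that supplies NADPH for lipid synthesis, rose by 1.16 (SE 0.23, adjusted p = 0.00647). It read 7.44 and 8.38 in untreated cells, 8.24 and 8.08 at 10 ng/ml, 9.36 and 8.81 at 100 ng/ml and 9.83 and 9.96 at 300 ng/ml, and its change was 0.68 once untreated replicate 1 was omitted (adjusted p = 0.115). It was 0.71 once BMP4 300 ng/ml replicate 2 was omitted, a mean over 10 and 100 ng/ml alone, and did not pass there. With 1 mean for all doses it was 0.98 (adjusted p = 0.0922). Scd1, the stearoyl-CoA desaturase, rose by 0.37 (adjusted p = 0.0216), which was 0.20 once untreated replicate 1 was omitted (adjusted p = 0.289). It did not pass either with BMP4 300 ng/ml replicate 2 omitted (adjusted p = 0.069), with each array centred on its median (0.052) and without a variance trend (0.0936). Both lists had 0 genes called in the mean of any compound, where 0%, 0% and 0.00451% of all genes were called with 942, 178 and 181.

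Methanol alone, the vehicle, moved 0 of the 26 genes past the threshold by limma when set against untreated cells, as it did 0% of all genes. Of the 26, 1 had an unadjusted p under 0.05, Stard4 at 0.30 (adjusted p = 0.99991). Sc5d stood at 0.22 (95% interval -0.01 to 0.44) and Nsdhl at 0.23 (-0.02 to 0.49).

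No cholesterol gene passed the test with any of the 3 compounds. Averaged over their doses, compounds 942, 178 and 181 each had 0 of 26 genes called by limma, and 0 with an unadjusted p under 0.05. Of all genes, 0%, 0% and 0.00451% were called. The 26 values lay between -0.30 and 0.26 for 942 (median -0.07), between -0.23 and 0.08 for 178 (median 0.00) and between -0.18 and 0.18 for 181 (median -0.06). Errors were wider for 942 (median SE 0.273) than for 178 and 181 (0.136 each), and its arrays all bore the Affyexpress label. Each change with 942 is therefore taken after subtracting the labelling term. Without that term the 26 values of 942 lay between -0.27 and 0.42 (median 0.00), 0 were called and 2, Pmvk (0.42) and Insig1 (0.27), had an unadjusted p under 0.05. Methanol had 1 array in the first run and 2 in the second, where all arrays of 178 and 181 lay. Without the first-run array the 26 values lay between -0.27 and 0.13 for 178 (median 0.04) and between -0.20 and 0.20 for 181 (median 0.00), and 0 were called.

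Sc5d, among the clearest of the BMP4 genes, read 8.76, 8.72 and 8.70 in 942, 8.83, 8.70 and 8.84 in 178 and 8.71, 8.61 and 8.54 in 181 at 6.25, 12.5 and 25 µM, against 8.70 to 8.75 in methanol. The mean changes were -0.08 (95% interval -0.49 to 0.32), 0.07 (-0.13 to 0.27) and -0.11 (-0.31 to 0.10). Hmgcs1 stood at -0.13 (-0.53 to 0.27), 0.06 (-0.14 to 0.26) and -0.10 (-0.30 to 0.10). All 6 intervals end below the BMP4 changes of these genes (0.65 and 0.55), whose own error they leave out.

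The genes with the largest mean changes in each compound were few and did not pass. In compound 942, after the labelling term, they were Lss (-0.30), Stard4 (-0.29), Tm7sf2 (-0.29) and Abca1 (-0.28). The term took 0.21, 0.29, 0.35 and 0.61 from these genes, and without it they stood at -0.09, 0.00, 0.07 and 0.33 against methanol of both runs. All arrays of 942 lay in the first run, whose methanol array read 7.41, 6.99, 7.14 and 5.59 for these genes. Against that array alone, Lss and Tm7sf2 lay lower at every dose, and Stard4 and Abca1 did not. Lss read 7.29, 7.16 and 7.10 at the rising doses against 7.16 to 7.41 in methanol, and Stard4 read 7.11, 6.99 and 6.98 against 6.96 to 7.13. Tm7sf2 read 6.94, 6.85 and 6.8 against 6.57 to 7.14, and Abca1 read 5.67, 5.42 and 5.52 against 5.00 to 5.59. All 4 sets overlapped methanol.

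In compound 178 they were Insig2 (-0.23, 95% interval -0.48 to 0.02), Abca1 (-0.16), Mvk (-0.16) and Tm7sf2 (-0.13). Insig2 read 8.26, 8.05 and 8.11 against 8.28, 8.43 and 8.39 in methanol, and so lay below all 3, as 4.92% of all genes did. Mvk read 7.08, 7.05 and 6.86 against 7.01 to 7.35, Abca1 read 5.01, 5.06 and 5.06, and Tm7sf2 read 6.63, 6.69 and 6.67, all overlapping methanol. With the first-run methanol array omitted, Insig2 stood at -0.27, Mvk at -0.06, Abca1 at 0.03 and Tm7sf2 at 0.04, so that Abca1 and Tm7sf2 changed sign. Dhcr7 was the other gene apart from methanol, above it, as were 4.67% of all genes.

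In compound 181 they were Stard4 (-0.18), Pmvk (0.18), Ebp (-0.15) and Insig2 (-0.15). Stard4 read 7.0, 6.79 and 6.75, and Ebp 8.56, 8.48 and 8.37 against 8.51 to 8.82 in methanol. Pmvk read 6.75, 6.65 and 6.74, above all 3 methanol arrays (6.43 to 6.60), and Insig2 read 8.22, 8.13 and 8.31. With the first-run methanol array omitted, Stard4 stood at -0.20, Pmvk at 0.20, Ebp at -0.05 and Insig2 at -0.19. Pmvk and Npc1 lay wholly above methanol, 2 of 26 against 4.82% of all genes, and 0 lay wholly below, against 6.51%. In 942, Pmvk and Insig1 lay wholly above methanol (5.65% of all genes) and Sqle wholly below (6.79%).

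**Figure D4:**
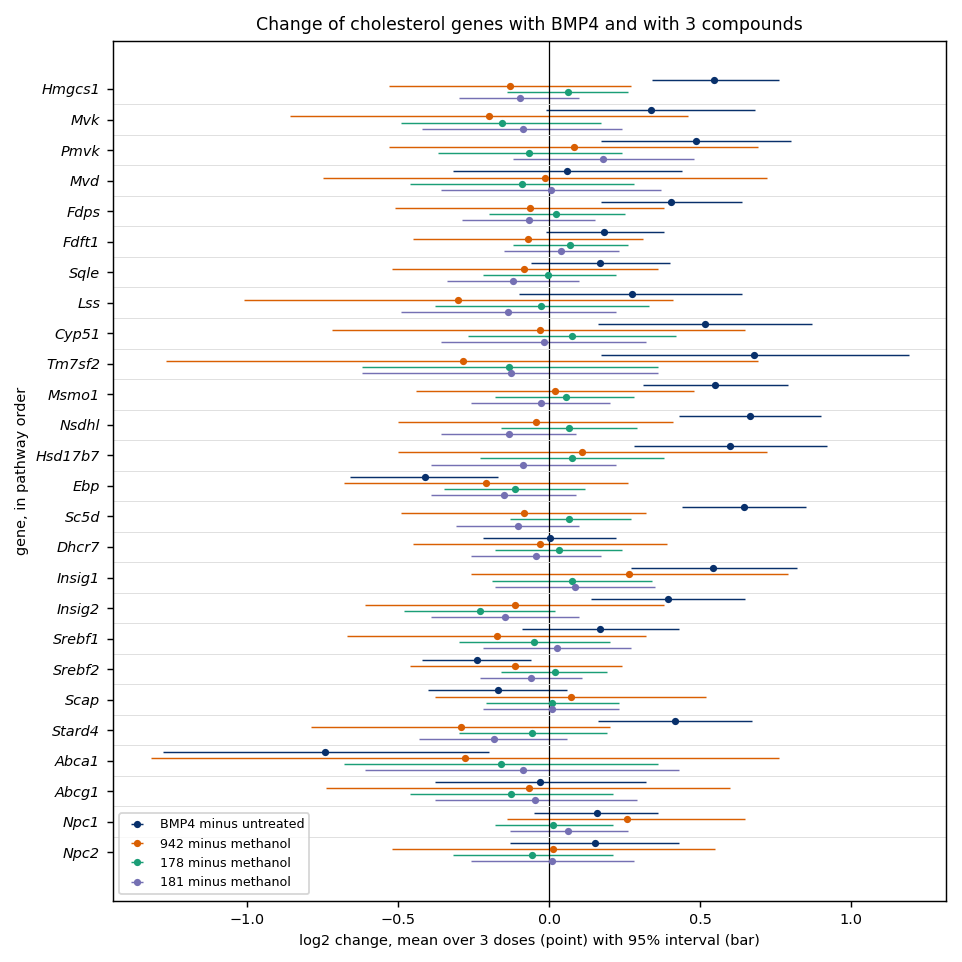
Change in log2 signal (horizontal axis) of the 26 genes in pathway order, averaged over 3 doses, for BMP4 against untreated cells and for compounds 942, 178 and 181 against methanol in the model with a labelling term, with points for estimates and bars for 95% intervals. BMP4 points of the enzymes lie mostly between 0.2 and 0.7, and the compound points lie between -0.30 and 0.26 with intervals that include 0.

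At single doses 0 of 26 passed for any compound, where 0.018% of all genes were called with 181 at 25 µM and 0% at every other dose. At 25 µM, Nsdhl in 181 read 9.44, under methanol at 9.63 to 9.90, and stood at -0.32 (95% interval -0.65 to 0.00, adjusted p = 0.777), the only member with an unadjusted p under 0.05 at any compound dose. Hmgcs1 read 9.62 there, under methanol at 9.85 to 9.92, and stood at -0.27 (adjusted p = 0.801). All 8 late enzymes stood below 0 in 181 at 25 µM, between -0.32 and -0.12, and 6 of 8 stood above 0 in 178 at that dose, between -0.23 and 0.29. Against the 2 methanol arrays of their own run the late enzymes lay between -0.26 and 0.00 in 181 and between -0.13 and 0.29 in 178. The median of the 16 enzymes was -0.12 in 942, 0.03 in 178 and -0.16 in 181 at 25 µM. The myoblast markers averaged 10.32 in the 181 array at 25 µM, the lowest of the compound arrays, and their part in these values was not tested. Slopes on dose had 0 of 26 called in each compound, and 0% of all genes.

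The compounds were compared at matched doses as 3 pairs, at 3 doses and as means, 12 comparisons in all, with p-values adjusted over all genes within each. In each of them 0 of 26 passed by limma, against 0.00451% of all genes for the mean of 181 minus 178 and 0% for the other 11. At 25 µM, 181 minus 178 was -0.46 for Nsdhl (95% interval -0.85 to -0.06, adjusted p = 0.822), -0.39 for Hmgcs1 (-0.74 to -0.04, adjusted p = 0.835) and -0.47 for Hsd17b7 (-1.0 to 0.05, adjusted p = 0.92). As means over the doses the 26 differences between 181 and 178 lay between -0.20 and 0.25, and Nsdhl stood at -0.20 (-0.43 to 0.03). These intervals leave room for differences of the size seen with BMP4 at a single dose, so the compounds are not shown to act alike.

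The change with BMP4 was also set directly against that with each compound. Less the change with 181, it passed for 3 of 26 genes, Nsdhl (0.80, SE 0.15, adjusted p = 0.0163), Sc5d (0.75, SE 0.13, adjusted p = 0.0115) and Hmgcs1 (0.64, adjusted p = 0.0247), against 2.86% of all genes. Less the change with 178, it passed for 1, Sc5d (0.58, adjusted p = 0.0349), against 3.52%, with Nsdhl at 0.60 (adjusted p = 0.052). Less the change with 942, it passed for 0 by limma, against 0.78%, with 7 at an unadjusted p under 0.05 and Sc5d at 0.73 (SE 0.19, adjusted p = 0.12). Without the labelling term 5, 4 and 3 genes passed against 181, 178 and 942, where 3.71%, 4.3% and 4.18% of all genes did. With a run term 7, 8 and 1 did, where 5.14%, 5.99% and 2.31% of all genes did, so the share over all genes rose as well. With untreated replicate 1 omitted, none of these 3 genes passed against 181 (adjusted p = 0.0744 to 0.134). Nsdhl was lost in 4 of 31 alternative fits, also without untreated replicate 2 or methanol replicate 2. Hmgcs1 against 181 and Sc5d against 178 were each lost in 10. For both genes these held the omission of any untreated or methanol array, of BMP4 300 ng/ml replicate 2 and of 1 compound array, 181 at 25 µM and 178 at 12.5 µM (highest adjusted p = 0.134 and 0.165).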

How the data were processed

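Biotinylated cRNA of 20 samples was measured on Affymetrix mouse gene arrays. The deposited values were log2 signals, made by the authors with RMA in Partek 6.5 per the submitters' processing notes, and were used as they stood. The sources used here do not give whether a batch correction was applied. Of 41345 probe sets, the platform annotation gave 23521 a single symbol, 1814 more than 1 and 16010 none. Genes with more than 1 probe set numbered 1082.

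All genes were fitted with limma 3.58.1 in R 4.3.3, using a mean for each treatment at each dose, a labelling term and a variance trend (5 residual and a median of 6.73 prior degrees of freedom). Every adjusted p is limma's, by Benjamini-Hochberg over 22180 genes, called under 0.05. Intervals are 95% and unadjusted. The script was tested on simulated data. All 26 genes were named. Those called with BMP4, and the 4 with the largest mean change in each compound, were given by array, and of the further lists only called genes were named. The members and lists were chosen with earlier results of these data known. Steps between BMP4 doses and the differences between BMP4 and compounds were added after values were seen. Promoters were searched on both strands.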

Additional observations from a re-analysis of the deposited data

How the results depend on the processing

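The number of arrays limits all results, and untreated cells had only 2. The counts in this section are of the cholesterol genes alone. The share of all genes called in each alternative is not given beside them. A shift in calls common to all genes can therefore not be told apart from one of these genes. The 9 genes called for the mean of BMP4 became 16 once the model had a run term (the runs of title numbers) and 14 once methanol and untreated arrays were pooled as control. Both together, chosen after seeing the data, gave 17. Leaving out 1 array gave 3 to 12, with 3 without either untreated array and 5 without BMP4 300 ng/ml replicate 2. Over 831 pairs of a gene and an alternative for that mean, 749 stayed on their side of the threshold, 40 lost a call, 42 gained one and 0 reversed. Pairs from fits that omit a compound array or BMP4 300 ng/ml replicate 1 could hardly do other than stay, so 749 overstates the stability. The genes gained with the run term were Mvk, Pmvk, Cyp51, Tm7sf2, Insig2, Srebf2 and Abca1.

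At 10 ng/ml the count of 0 became 4 with the run term, 1 with the pooled control and 4 with both, and 0 to 2 without 1 array. At 100 ng/ml the count of 9 became 15 with the run term, 16 with both, 5 with each array centred on its median and 4 to 11 without 1 array, with 4 without either untreated array and 5 without BMP4 100 ng/ml replicate 1. At 300 ng/ml the count of 4 became 11 without the labelling term, 10 with the run term, 12 with both and 1 to 6 without 1 array, the 1 without untreated replicate 1. The slope count of 1 became 3 without the labelling term, 4 with the run term, 3 with both, 0 without the trend, 0 with both 10 ng/ml arrays left out (also chosen after seeing the data) and 0 to 4 without 1 array, the 4 without BMP4 10 ng/ml replicate 1. The cause of these shifts was not tested. Counts for the compounds, for 181 minus 178 and for methanol were 0 in every alternative that could be fitted. Among them, 942 could not be fitted as a mean without either BMP4 300 ng/ml array. The titles carry no replicate numbers that would pair arrays, and the fits with the run term are the only ones that block the arrays.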
